A study of Mus musculus and Homo sapiens with 20 samples.

Results

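The Polycomb histone marks H2AK119ub and H3K27me3 were compared at the protein-coding promoters of wild-type mouse embryonic stem (mES) cells, and each promoter was placed in the class that carried both marks, H2AK119ub alone, H3K27me3 alone or neither. A promoter was the window from 1 kb before to 1 kb after the 5′ end of a gene in the GENCODE annotation of mm10, and a mark was called where a peak touched that window in both of its replicates. Of the 21951 protein-coding genes annotated, the 20807 on autosomes were classed. The calls came from 4 of the 20 CUT&Tag libraries of the series, 2 for H2AK119ub and 2 for H3K27me3. CUT&Tag sends a transposase to chromatin through an antibody, and the peaks are the places where its insertions pile up. The cells were a wild-type line given by another laboratory, with no allele or knockdown of the study in them, and they grew in serum with LIF, CHIR99021 and PD0325901 after passages on gelatin that cleared feeder cells. Tet2-KO mES cells and Tet2-WT and Tet2-KO LK cells, the lineage-negative c-Kit+ progenitors from the bone marrow of mice 6–8 weeks old, served only to look up the same promoters again. The methods call the replicates biological and do not say whether each came from its own culture.

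H2AK119ub is placed on histone H2A by the RING1A or RING1B ligase of Polycomb repressive complex 1 (PRC1), and H3K27me3 is placed on histone H3 by EZH1 or EZH2 in Polycomb repressive complex 2 (PRC2). Chromobox proteins of canonical PRC1 bind H3K27me3, and JARID2 and AEBP2 of PRC2 bind H2AK119ub, so each mark can help to bring the other. In mES cells the pair is best known from the CpG islands of developmental genes that are silent but can be switched on, and variant PRC1 can be brought to CpG islands by KDM2B, which binds unmethylated CpG.

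The classes differed in CpG content, a property that no call had used, and these promoters show it. Each is the RefSeq promoter on GRCm38.p6, 250 bases before to 50 bases after the start, printed 5′ to 3′ with every CpG in capitals. Atoh1, a neural transcription factor with both marks (chr6:64728875-64729174, plus strand), held 20 CpG. Rpl37a, a ribosomal protein gene with H2AK119ub alone (chr1:72711010-72711309, plus strand), held 24. Gabrr1, a GABA receptor subunit with H3K27me3 alone (chr4:33132306-33132605, plus strand), held 9. Its call rested on 501 bp peaks over 16.3% and 17.1% of the window, and it had neither mark with a 500 bp window on each side, with at least 500 bp covered or with peaks of at least 1 kb. Olfr1030, an olfactory receptor gene with neither mark (chr2:85979062-85979361, plus strand), held 1. Each was the member of its gene list and class nearest to the median CpG count, out of 64, 14, 1 and 114 candidates with a RefSeq start within 50 bp.
Atoh1: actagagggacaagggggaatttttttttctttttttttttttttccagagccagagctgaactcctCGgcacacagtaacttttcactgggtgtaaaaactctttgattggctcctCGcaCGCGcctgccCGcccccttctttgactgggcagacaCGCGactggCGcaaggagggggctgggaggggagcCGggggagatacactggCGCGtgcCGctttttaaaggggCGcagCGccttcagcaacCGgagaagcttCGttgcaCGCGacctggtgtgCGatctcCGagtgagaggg
Rpl37a: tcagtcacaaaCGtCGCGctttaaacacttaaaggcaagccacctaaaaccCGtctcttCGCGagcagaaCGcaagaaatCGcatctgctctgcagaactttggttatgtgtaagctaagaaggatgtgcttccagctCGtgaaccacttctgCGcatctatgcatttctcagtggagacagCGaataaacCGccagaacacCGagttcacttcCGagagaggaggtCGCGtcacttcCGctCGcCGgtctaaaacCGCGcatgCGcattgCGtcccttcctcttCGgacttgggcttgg
Gabrr1: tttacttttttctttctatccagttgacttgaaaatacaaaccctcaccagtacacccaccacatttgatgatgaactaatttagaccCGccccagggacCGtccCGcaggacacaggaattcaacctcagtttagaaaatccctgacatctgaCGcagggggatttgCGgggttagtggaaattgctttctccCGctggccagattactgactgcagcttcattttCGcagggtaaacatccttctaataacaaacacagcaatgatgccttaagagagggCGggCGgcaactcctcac
Olfr1030: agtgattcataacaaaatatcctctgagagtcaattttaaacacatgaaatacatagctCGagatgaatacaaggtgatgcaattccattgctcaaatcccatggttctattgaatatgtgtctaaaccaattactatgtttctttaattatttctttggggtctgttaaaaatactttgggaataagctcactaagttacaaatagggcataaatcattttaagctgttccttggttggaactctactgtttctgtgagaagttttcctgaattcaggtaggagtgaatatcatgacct

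Over the 10267 promoters with such a RefSeq start, the median was 18 CpG in 300 bases with both marks, 20 with H2AK119ub alone, 5 with H3K27me3 alone and 4 with neither, against 16 over all of them. CpG-dense promoters with H3K27me3 alone did exist. Igfbp7, which encodes a secreted binding protein of insulin-like growth factors (chr5:77407996-77408295, minus strand), held 33 CpG. Its window was wholly covered in both H3K27me3 libraries, under peaks of 9876 and 10342 bp, and had 0 bases covered in either H2AK119ub library. It was chosen for print as the middle of 3 matched promoters among the H3K27me3-only genes with the most covered bases.
Igfbp7: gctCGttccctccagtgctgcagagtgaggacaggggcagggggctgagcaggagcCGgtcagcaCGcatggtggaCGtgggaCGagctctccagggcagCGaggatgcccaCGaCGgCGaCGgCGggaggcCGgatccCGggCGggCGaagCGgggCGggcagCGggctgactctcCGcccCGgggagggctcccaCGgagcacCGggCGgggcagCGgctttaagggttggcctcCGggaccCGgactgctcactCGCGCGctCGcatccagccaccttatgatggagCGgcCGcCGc

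H2AK119ub was called at more promoters than H3K27me3, though its lists were also the longer ones. It was called at 13649 promoters (65.6% of all) and H3K27me3 at 9503 (45.7%). Both marks were called at 8892 promoters (42.7%), H2AK119ub alone at 4757 (22.9%), H3K27me3 alone at 611 (2.94%) and neither at 6547 (31.5%). H3K27me3 therefore seldom stood without H2AK119ub. Of the H3K27me3 promoters, 93.6% also had H2AK119ub, whereas 65.1% of the H2AK119ub promoters also had H3K27me3. Between single libraries, in the 4 possible pairings, these shares were 93.5–94.9% and 65.6–68.8%. With every list cut after the same number of peaks they were 89.7% and 70.0%. Before any cut, the H2AK119ub libraries had a mean of 4153 more promoters with a peak than the H3K27me3 libraries. With the lists cut to equal covered length in file order, this difference was 1393.5 and the libraries overlapped.

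**Figure D1:**
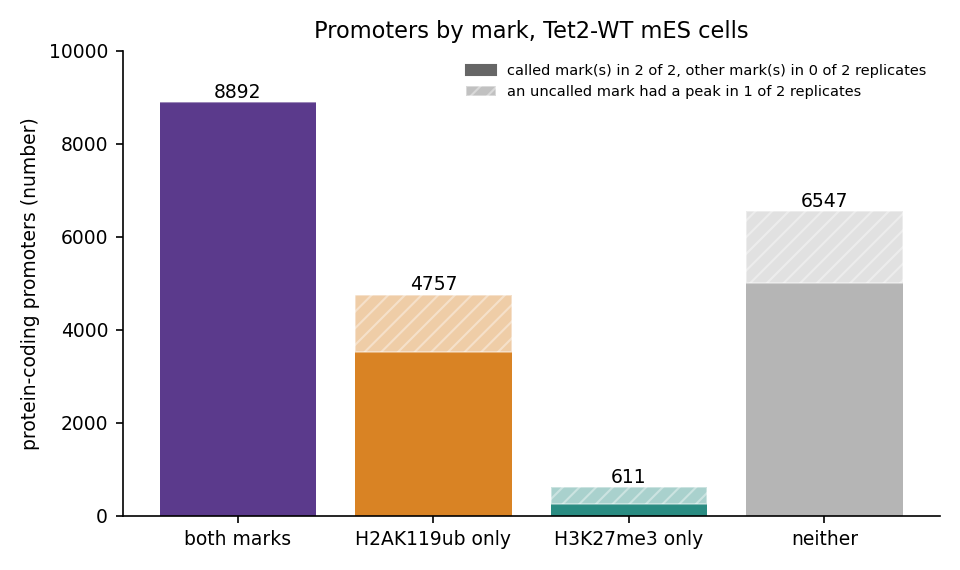
Number of protein-coding promoters in each class (y axis) in Tet2-WT mES cells; solid bars are promoters at which an uncalled mark had a peak in 0 of 2 replicates, hatched bars those at which it had a peak in 1 of 2. The solid part is 3513 of 4757 for H2AK119ub alone but 248 of 611 for H3K27me3 alone.

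The class with H2AK119ub alone rested on firmer calls than the class with H3K27me3 alone. At 3513 of the H2AK119ub-only promoters (73.8%) neither H3K27me3 library had a peak, and at 1244 exactly 1 had. At 248 of the H3K27me3-only promoters (40.6%) neither H2AK119ub library had a peak, and at 363 (59.4%) exactly 1 had. Of the promoters with neither call, 5002 (76.4%) were without a peak in all 4 libraries. The shorter list of the 4 was H3K27me3 replicate 1, with 186.6 Mb covered on autosomes against 229.6 Mb in H3K27me3 replicate 2, and the H2AK119ub lists covered 258.8 and 247.4 Mb. With H3K27me3 replicate 2 as the only H3K27me3 library, 903 promoters were H3K27me3-only, and with replicate 1 as the only one, 733. Asking for a peak in 1 H3K27me3 library in place of both can only raise this count. The peak lists carry neither read counts nor the spike-in scaling, so the depth behind a missing peak is unknown.

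Promoters without the second mark lay at different distances from it. From the start of an H3K27me3-only gene, the nearest H2AK119ub peak of either replicate was a median of 567 bp away, and 82.5% of these starts had one within 5 kb. From the start of an H2AK119ub-only gene, the nearest H3K27me3 peak was a median of 8890 bp away, and 39.8% had one within 5 kb. A peak in 1 replicate sufficed here, although the class rule asked for both replicates. Such a peak touched the window at 59.4% of the H3K27me3-only and 26.2% of the H2AK119ub-only promoters. The first median therefore had to lie within 1 kb, and the contrast partly restates replicate support. The H2AK119ub lists were also the longer ones, and the part of list length in this difference was not tested. Gene neighbours tended to share a class. The next gene along the chromosome had the same class for 61.4% of the both-mark genes and 42.9% of the H2AK119ub-only genes, against their shares of 42.7% and 22.9% of all promoters, and for 11.5% of the H3K27me3-only genes. Neighbours can lie under 1 broad peak. H2AK119ub-only promoters also more often had another gene start within 1 kb (22.2%, against 10.9% with both marks and 12.9% of all promoters).

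Peaks at promoters were broader where both marks were present. In the both-mark class, the widest H2AK119ub peak at a promoter had a median width of 2907 bp in replicate 1 and 2808.5 bp in replicate 2, and H3K27me3 peaks had medians of 3248 and 4174 bp. At H2AK119ub-only promoters the medians were 953 and 1018 bp. At H3K27me3-only promoters they were 791 and 1197 bp. The same mark was thus 3.05 and 2.76 times wider with its partner than alone for H2AK119ub, and 4.11 and 3.49 times wider for H3K27me3. These differences between classes exceeded the differences between replicates of a mark. A peak of 501 bp, the narrowest width that the lists commonly hold, was the widest H2AK119ub peak at 20.7% and 18.6% of the H2AK119ub-only promoters and at 4.49% and 4.15% of those with both marks.

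**Figure D2:**
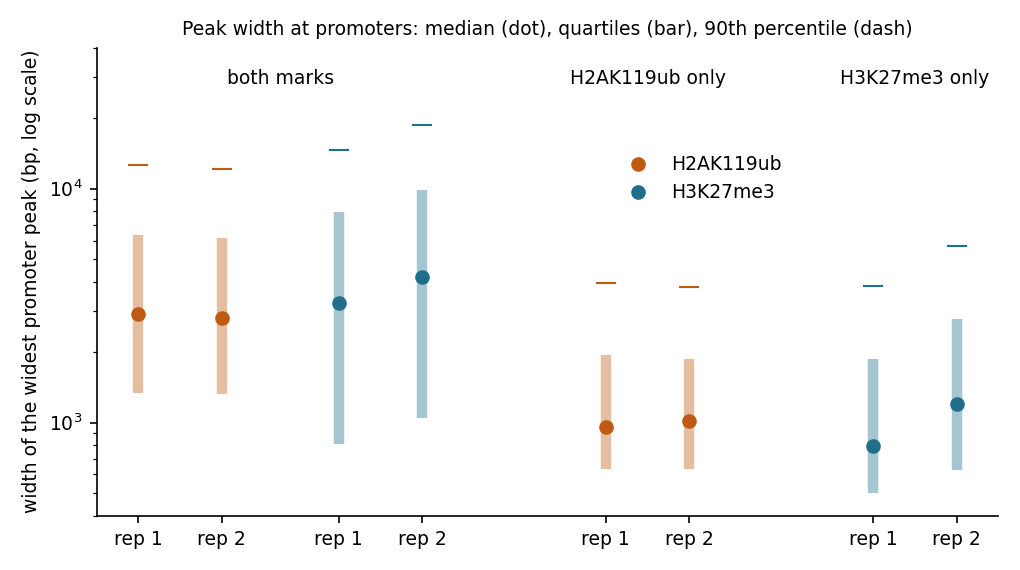
Width of the widest peak touching each promoter (y axis, bp, log scale) by class and library; dots are medians, thick bars run between the quartiles and dashes mark the 90th percentile. The medians in the both-mark class lie between 2808.5 and 4174 bp and those in the other classes between 791 and 1197 bp.

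Breadth also split the both-mark class. A peak of at least 5 kb lay over the promoter in all 4 libraries at 1836 promoters (8.82% of all). At 3712 of the both-mark promoters (41.7%) the H3K27me3 peak was the wider in all 4 pairings of an H2AK119ub with an H3K27me3 library, with medians of 6792 and 8189 bp for H3K27me3 and of 2993.5 and 2975.5 bp for H2AK119ub. At 2926 (32.9%) the H2AK119ub peak was the wider in all 4 pairings, with medians of 2837.5 and 2717 bp for H2AK119ub and of 759 and 840.5 bp for H3K27me3. H2AK119ub peaks were therefore of like width in these sets, and the H3K27me3 peaks set them apart, as the choice by relative width allows. The median CpG observed/expected ratio was 0.548 in the first set and 0.568 in the second.

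The 5 both-mark genes with the widest peaks, 1 per peak, were Zfpm1, Hoxb5, Plxnd1, Cdh22 and Exoc3l4. Zfpm1, which encodes the GATA cofactor FOG1 and starts at position 122282141 of chromosome 8, lay under H2AK119ub peaks of 132.4 and 151.5 kb and H3K27me3 peaks of 68.6 and 97.9 kb. Hoxb5, a homeobox gene that starts at position 96303336 of chromosome 11, had the opposite order, with H2AK119ub peaks of 24.8 and 33.7 kb inside H3K27me3 peaks of 115.8 and 87.3 kb. Plxnd1, a semaphorin receptor gene, had 72.2 and 58.6 kb of H2AK119ub and 57.5 and 68.4 kb of H3K27me3. For Plxnd1 the ranges of the marks overlapped, whereas for Zfpm1 and Hoxb5 they did not.

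Around the start, both marks fell away faster on the upstream side. In the both-mark class the base at the start was covered at 86.1% and 88.2% of promoters for H2AK119ub and at 88.8% and 91.2% for H3K27me3. At 1 kb downstream H2AK119ub covered 68.0% and 67.6%, and at 1 kb upstream 53.0% and 50.8%. H3K27me3 covered 63.4% and 67.2% downstream and 51.7% and 56.9% upstream. At 10 kb into the gene 34.4% and 33.1% of the both-mark promoters were still under H2AK119ub, against 20.2% and 18.98% of the H2AK119ub-only ones. The height at the start itself follows from how the classes were called.

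**Figure D3:**
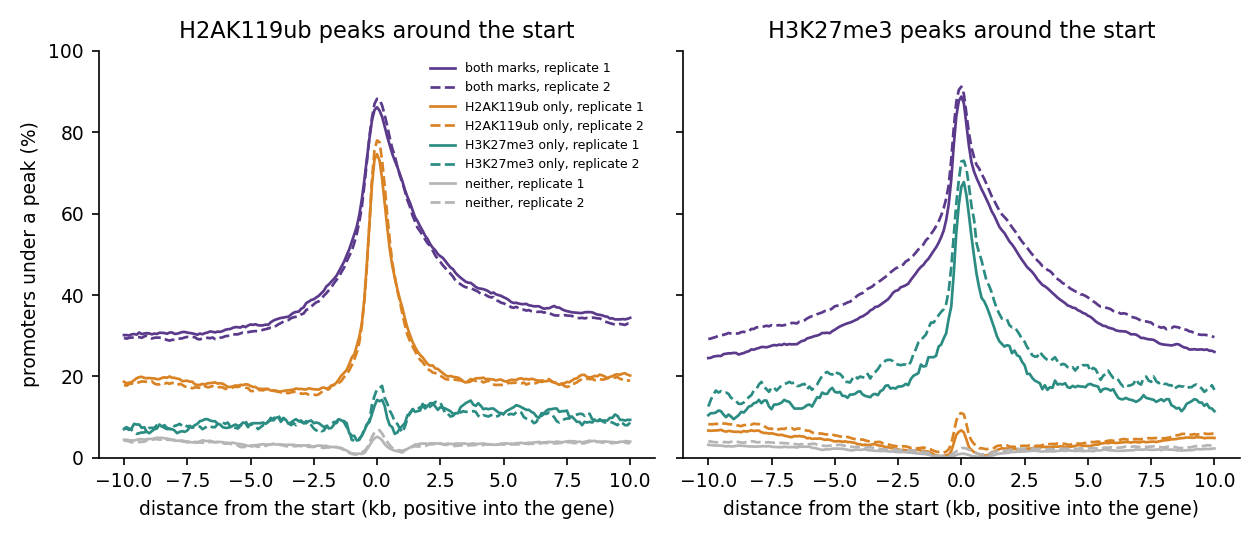
Share of promoters under a peak (y axis, %) by distance from the gene start (x axis, kb, positive into the gene) for H2AK119ub (left) and H3K27me3 (right); colours are classes, solid and dashed lines are replicates 1 and 2. Both-mark curves stay above those of the single-mark classes out to 10 kb, and at 1 kb the downstream side is higher than the upstream side.

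H2AK119ub peaks covered a larger share of gene bodies, though the H2AK119ub lists were also the longer ones. Among the 7544 both-mark genes of at least 5 kb, the median share of the body beyond the promoter window under H2AK119ub peaks was 26.1% and 24.5%, and under H3K27me3 peaks 9.95% and 13.3%. The means differed less, at 36.5% and 35.5% against 26.6% and 29.9%. At 5 kb into the gene, H2AK119ub covered 39.5% and 38.0% of all both-mark promoters and H3K27me3 34.9% and 39.4%, so the libraries overlapped there. Among the 3991 H2AK119ub-only genes the medians were 6.30% and 5.79% for H2AK119ub and 0% in both H3K27me3 libraries. Over all peaks, 50.9% ± 0.0756 (SD, n = 2) of the H2AK119ub bases lay in protein-coding genes outside promoter windows, against 44.7% ± 0.766 (n = 2) of the H3K27me3 bases.

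Marked promoters were frequent at intermediate CpG content, and H3K27me3 turned down earlier as CpG rose. The CpG observed/expected ratio compares the CpG count of the window with that expected from its C and G content. Its median was 0.543 with both marks, 0.589 with H2AK119ub alone, 0.269 with H3K27me3 alone and 0.189 with neither, against 0.486 over all promoters. When promoters were split into 10 groups of equal size by this ratio, H2AK119ub was called at 11.9% in the lowest group, 87.2% in group 7 and 70.7% in the highest. H3K27me3 was called at 12.1% in the lowest, 65.2% in group 5 and 42.7% in the highest. The median GC content was 54.4% with both marks, 53.1% with H2AK119ub alone, 46.2% with H3K27me3 alone and 43.6% with neither.

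**Figure D4:**
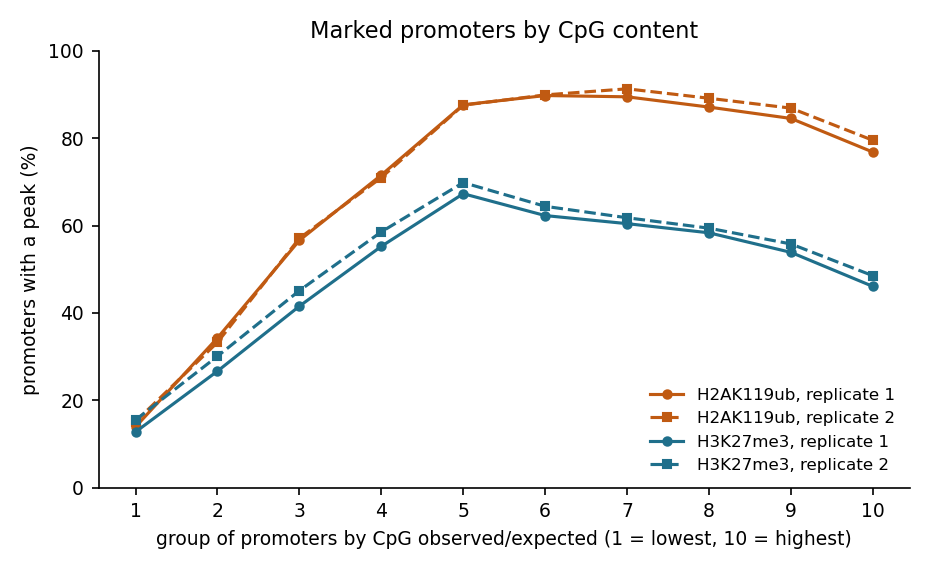
Promoters with a peak (y axis, %) in each library by group of the CpG observed/expected ratio (x axis, 10 groups of equal size, 1 = lowest); circles with solid lines are replicate 1, squares with dashed lines replicate 2. H2AK119ub libraries lie between 76.8% and 91.3% from group 5 to group 10, while H3K27me3 libraries pass from 67.3% and 69.8% in group 5 to 46.1% and 48.5% in group 10.

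Genes of embryonic patterning carried both marks almost without exception, against 42.7% of all promoters. All 39 Hox genes, the homeobox genes that set position along the body, were in the both-mark class. Their median widths were 10307 and 10197 bp for H2AK119ub and 25216 and 62824 bp for H3K27me3. Neighbouring Hox genes can lie under 1 broad peak, so the same peak can count more than once in these values. Of 157 developmental transcription factors, 156 had both marks, and the H3K27me3 peak was the wider in all 4 pairings at 128 of them. Over all both-mark promoters this share was 41.7%. A peak of at least 5 kb lay over the start in all 4 libraries at 105 of the 157 (66.9%, against 8.82% of all promoters) and at 33 of the 39 Hox genes. Atoh1 had H2AK119ub peaks of 4051 and 4147 bp and H3K27me3 peaks of 20300 and 20462 bp. Alx4, a homeobox gene of limb and skull development, had 20450 and 19785 bp of H2AK119ub and 25918 and 30704 bp of H3K27me3. The remaining member, Cdx1, a caudal-type homeobox gene, had H2AK119ub peaks of 14320 and 17705 bp and no H3K27me3 peak in either library.

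Secreted ligands and antagonists of development were in the both-mark class at 70 of 75 promoters (93.3%, against 42.7% of all promoters). Bmp2, a bone morphogenetic protein, had H2AK119ub peaks of 2987 and 3249 bp and H3K27me3 peaks of 11241 and 11064 bp. Nodal, the ligand that patterns the early embryo, and Dkk4, a Wnt antagonist, had H2AK119ub alone. The Nodal peaks were 3976 and 2622 bp wide, and both H3K27me3 libraries were without a peak there. Bmp5, Fgf7 and Fgf10 had no peak in any of the 4 libraries.

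Neuronal membrane proteins were mostly in the same class. Both marks were called at 50 of 58 promoters of voltage-gated channel subunits (86.2%) and at 77 of 92 promoters of neurotransmitter receptors (83.7%). The share over all promoters was 42.7%. At 61 of the 77 receptor promoters, against 41.7% of all both-mark promoters, the H3K27me3 peak was the wider in all 4 pairings. The median widths there were 3224 and 3169 bp for H2AK119ub and 7301 and 8514 bp for H3K27me3. All 3 GABA rho subunit genes (Gabrr1, Gabrr2 and Gabrr3) and Gria1, an AMPA receptor subunit gene, were H3K27me3-only. Gria1 starts at position 57011387 of chromosome 11, and its window was wholly covered by H3K27me3 peaks of 5.37 and 5.19 kb with 0 bases under H2AK119ub in either library. When the start of any coding transcript was allowed, Gria1 moved to the both-mark class.

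Housekeeping genes were mostly marked by H2AK119ub alone or by neither mark. H2AK119ub alone, at 22.9% of all promoters, was called at 38 of 77 ribosomal protein genes, 38 of 78 mitochondrial ribosomal protein genes, 21 of 37 aminoacyl-tRNA synthetase genes, 15 of 34 complex I subunit genes, 12 of 38 proteasome subunit genes and 22 of 40 replication genes. These peaks were narrow, with medians of 733 and 757 bp over the marked ribosomal protein genes and of 762 and 794 bp over the marked replication genes. With or without H3K27me3, H2AK119ub was called at 52.6–77.5% of each list, against 65.6% of all promoters. H3K27me3 was called at 13.0–26.3% of each list, against 45.7%. In CpG groups 7 and 8, where the median CpG ratios of the lists lay, 31.6% and 32.0% of all promoters had H2AK119ub alone. Rpl37a had H2AK119ub peaks of 712 and 501 bp. Cdc6, which loads the replicative helicase, had 762 and 760 bp and no H3K27me3 peak in either library. When peaks under 1 kb were left out, H2AK119ub alone was called at 18.2% of the ribosomal protein genes and 15.0% of the replication genes, where all peaks gave 49.4% and 55.0%. With every list cut after the same number of peaks, these shares were 32.5% and 35.0%. The 9 replication genes in the both-mark class all had the H2AK119ub peak wider in all 4 pairings, with H3K27me3 medians of 501 bp in both libraries. Over all both-mark promoters, 32.9% had the H2AK119ub peak wider in all 4 pairings.

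**Figure D5:**
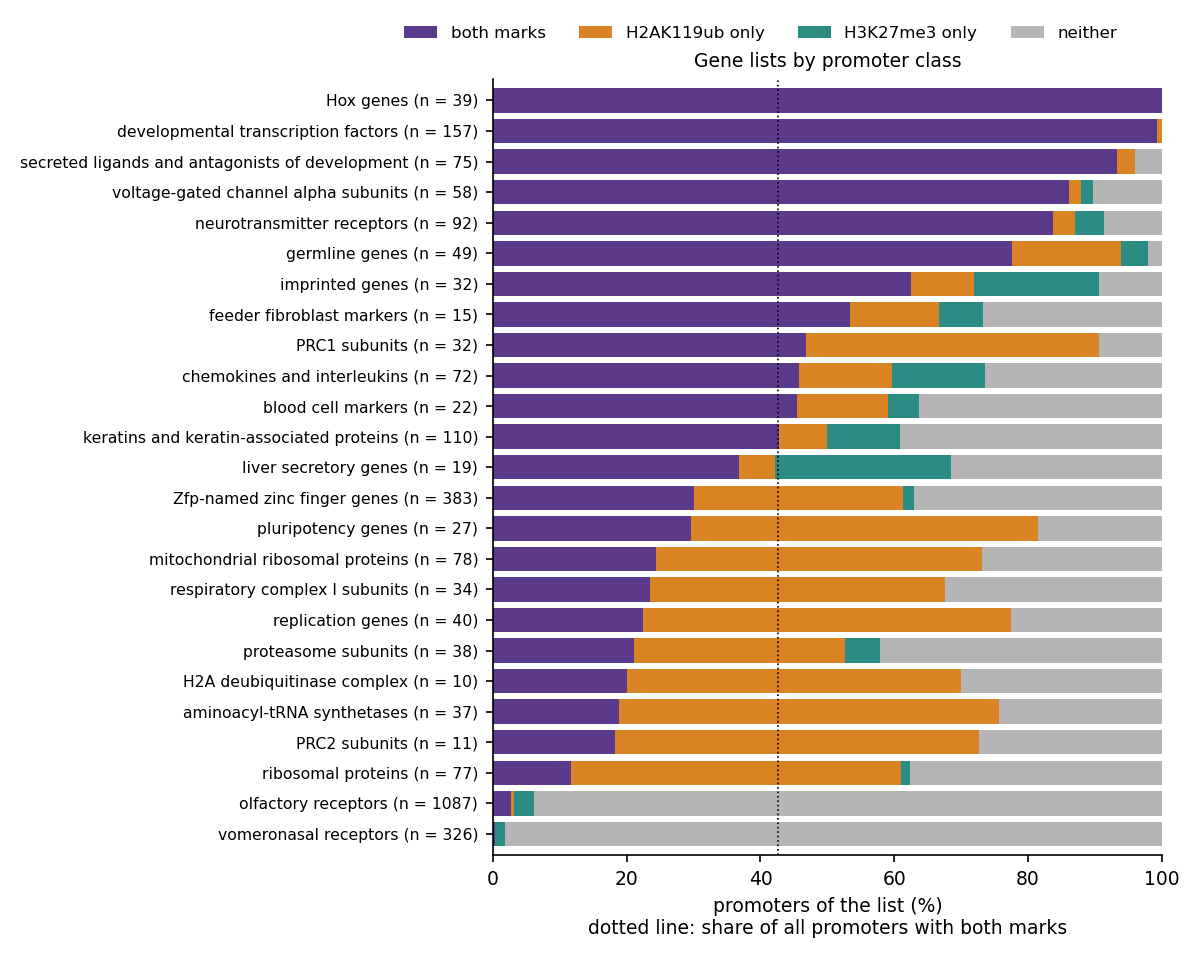
Share of each gene list (y axis, number of promoters in brackets) in the 4 classes (x axis, % of the list); the dotted line marks the 42.7% of all promoters with both marks. Hox genes reach 100%, ribosomal proteins 11.7% and olfactory receptors 2.76%.

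Pluripotency genes resembled the housekeeping lists in their classes but had wider H2AK119ub peaks. Of 27 members, 14 had H2AK119ub alone (51.9%, against 22.9% of all promoters) and 8 had both marks (29.6%, against 42.7%). Another 5 had neither (18.5%, against 31.5%) and 0 had H3K27me3 alone (against 2.94%). The share with H2AK119ub alone was 37.0% with peaks of at least 1 kb and 40.7% with equal numbers of peaks. It was also 40.7% without H3K27me3 replicate 1, and 55.6% with a 500 bp window on each side. Over the members with a peak, the H2AK119ub medians were 1575 and 2021 bp. Pou5f1, which encodes OCT4 and starts at position 35506018 of chromosome 17, had H2AK119ub peaks of 3205 and 3194 bp and no H3K27me3 peak. Nanog had H2AK119ub peaks of 641 and 695 bp and no H3K27me3 peak. Sox2 had H2AK119ub peaks of 1287 and 2855 bp, and a 501 bp H3K27me3 peak touched its window in replicate 2. Over the 8 members with both marks, median widths were 3618 and 3686 bp for H2AK119ub and 564 and 678 bp for H3K27me3. The H2AK119ub peak was the wider in all 4 pairings at 6 of them, against 32.9% of all both-mark promoters. Klf4 had H3K27me3 peaks of 501 and 727 bp, and it had neither mark with a 500 bp window on each side. At the other 2, Esrrb and Dppa3, the H3K27me3 peak was the wider in all 4 pairings. At Esrrb the peaks were 3154 and 8083 bp of H2AK119ub and 8197 and 13775 bp of H3K27me3. At Dppa3, the 1 member under a peak of at least 5 kb in all 4 libraries, they were 10475 and 10733 bp of H2AK119ub and 14923 and 17802 bp of H3K27me3. Of 8 mES marker genes checked, 5 were H2AK119ub-only, 2 had both marks and 1 had neither. Of 8 feeder fibroblast markers, 4 had both marks, 2 (Vim and Fn1) H2AK119ub alone, 1 (Postn) H3K27me3 alone and 1 (Col3a1) neither. Of 8 blood cell markers, 4 had both marks and 4 neither. A peak list holds no expression level, so these classes do not check the cell type.

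Germline genes stood between. Both marks were called at 38 of 49 (77.6%, against 42.7% of all promoters). Among them was Dazl, an RNA-binding protein of germ cells. It had H2AK119ub peaks of 2804 and 946 bp and H3K27me3 peaks of 2422 and 2294 bp. A peak of at least 5 kb in all 4 libraries lay over 3 of the 49 (6.12%, against 8.82% of all promoters). With peaks of at least 1 kb, both marks were called at 51.0% of the germline genes, where all peaks gave 77.6%. Imprinted genes, which are read from a single parental copy, had both marks at 20 of 32 promoters (62.5%, against 42.7% of all promoters). They had H3K27me3 alone at 6 (18.8%, against 2.94%). Only 3 of the 32 were without an H2AK119ub peak in either replicate, so some of the 6 had one in 1 replicate. Dlk1 had H2AK119ub peaks of 6178 and 9488 bp and H3K27me3 peaks of 30296 and 36182 bp. Ndn, an H3K27me3-only imprinted gene, had H3K27me3 peaks of 2391 and 4439 bp and a 501 bp H2AK119ub peak in replicate 1 only.

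H3K27me3 alone was also found in gene lists of differentiated tissues whose promoters had few CpG. It was called at 5 of 19 liver secretory genes, 12 of 110 keratin genes and 10 of 72 chemokine and interleukin genes, against 2.94% of all promoters. In CpG group 3, where the median CpG ratios of the lists lay, 5.10% of promoters had H3K27me3 alone. In these lists 8, 43 and 19 promoters had no H2AK119ub peak in either replicate. Other promoters without the H2AK119ub call had a peak in 1 replicate, and they may include H3K27me3-only ones. Both marks were called at more promoters of each list (7, 47 and 33). These were 36.8%, 42.7% and 45.8% of the lists, against 42.7% of all promoters. Hp, which encodes haptoglobin, had its window wholly covered in both H3K27me3 libraries by peaks of 5.81 and 12.5 kb, with 0 bases under H2AK119ub. Wee2, an oocyte kinase gene at position 40439088 of chromosome 6, also had a wholly covered window, with H3K27me3 peaks of 12.6 and 19.02 kb and 0 bases under H2AK119ub. Hipk2, which encodes a nuclear kinase, had 11.7 and 13.4 kb, and another gene starts within 1 kb of it. Its window was rich in CpG, with an observed/expected ratio of 0.909. With a window of 2 kb on each side Hp and Hipk2 moved to the both-mark class, and Wee2 did so when the start of any coding transcript was allowed. Lpo, the lactoperoxidase gene, had the widest H3K27me3-only peaks at 19.2 and 22.6 kb, but a 501 bp H2AK119ub peak touched its window in replicate 2.

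H2AK119ub-only genes with broad peaks formed a small set, since 7.21% and 6.98% of that class lay under a peak of at least 5 kb. Aprt, a purine salvage enzyme gene at position 122576909 of chromosome 8, had H2AK119ub peaks of 27.6 and 22.4 kb. Atp5d, an ATP synthase subunit gene at position 80138632 of chromosome 10, had 25.01 and 21.01 kb. Spib, an Ets transcription factor gene, had 21.8 and 22.2 kb. Lsm7, Mfsd12, Acd, Caskin2, Pik3r2, Pcbp4 and Gpr146 completed the 10 genes named from wholly covered windows, where ties were broken by peak width, and none of the 10 had a base of its window under H3K27me3 in either library. With a window of 2 kb on each side Atp5d moved to the both-mark class, and Pik3r2 and Pcbp4 did so when the start of any coding transcript was allowed.

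Chemosensory receptor genes were largely without either mark. Of 1087 olfactory receptor genes 1021 were in the class with neither mark (93.9%, against 31.5% of all promoters), and 320 of 326 vomeronasal receptor genes were. The median CpG ratios of both lists lay in the lowest CpG group, where 84.1% of promoters had neither mark. Receptor genes are themselves part of that group. These families hold near-identical copies, and the methods report only the best alignment of a read that matches several places, so a missing peak there is uncertain. H3K27me3 alone was called at 32 olfactory receptor genes, the same share as over all promoters (2.94%), both marks at 30 (2.76%, against 42.7%) and H2AK119ub alone at 4 (0.368%, against 22.9%).

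The genes of the Polycomb machinery themselves carried H2AK119ub at 29 of 32 promoters of PRC1 subunits (90.6%, against 65.6% of all promoters), 8 of 11 of PRC2 subunits (72.7%) and 7 of 10 of the H2A deubiquitinase complex (70.0%), and the latter pair of shares lay near that of all promoters. The median CpG ratio lay in CpG group 9 for the PRC1 list and in group 10 for the other 2 lists. H2AK119ub was called at 80.8% and 70.7% of promoters in these groups, and alone at 31.8% and 31.1%. Among the PRC1 genes 15 had both marks (46.9%, against 42.7%) and 14 H2AK119ub alone (43.8%, against 22.9% of all promoters). Cbx2, a chromobox subunit, had H2AK119ub peaks of 13774 and 14047 bp and H3K27me3 peaks of 12913 and 11900 bp. Among the PRC2 genes 6 had H2AK119ub alone (54.5%) and 2 both marks (18.2%). Ezh2, the catalytic subunit, was in the both-mark class on narrow peaks of 781 and 832 bp for H2AK119ub and 501 bp in both H3K27me3 libraries, while Eed had no peak in any of the 4. Among the deubiquitinase genes 5 had H2AK119ub alone (50.0%), among them Bap1, the catalytic subunit, and Mbd6. Another 2 had both marks, and 3 (Asxl1, Asxl2 and Mbd5) had neither.

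Over all autosomal peaks the marks differed in number and in how much of their length lay in broad peaks. The H2AK119ub lists held 166255 and 161656 peaks and the H3K27me3 lists 108110 and 118791, so the groups did not overlap. When the lists were cut to equal covered length in file order, the order of the means turned and the libraries overlapped. Peaks of at least 5 kb held 31.0% ± 0.494 (SD, n = 2) of the H2AK119ub bases and 42.5% ± 3.32 (n = 2) of the H3K27me3 bases. The median covered length of a marked promoter was 1268 ± 1.41 bp for H2AK119ub and 1435.5 ± 55.9 bp for H3K27me3. The cut to equal covered length also took the difference in broad-peak share from -11.5 to -5.61 percentage points, and for this share and for the covered length of a promoter the libraries then overlapped (exact p = 1 for each). Median peak width was 749 ± 11.3 bp against 732 ± 58.0 bp, and the replicates of the marks overlapped. In a two-sided exact permutation test of 2 libraries against 2, each of the 9 measures without overlap gave p = 0.333, the smallest that 6 arrangements allow, and 0.481 after Benjamini–Hochberg adjustment over 13 measures, so none could pass 0.05.

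Broad peaks were more often shared by the marks. Of the H2AK119ub peaks of at least 10 kb, 96.8% in either replicate touched an H3K27me3 peak in both H3K27me3 libraries, and of those of 501 bp or less 24.7% and 25.8% did. Of the H3K27me3 peaks, 100% and 99.97% of the former size and 41.7% and 34.6% of the latter touched H2AK119ub in both libraries. Wider peaks have more room to touch another peak. By covered bases, the Jaccard index was 0.622 between the H2AK119ub replicates, 0.671 between the H3K27me3 replicates and 0.412–0.427 between libraries of different marks.

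The classes were then looked up in libraries that had not defined them. In Tet2-KO mES cells H2AK119ub peaks lay at 92.8% and 91.5% of the H2AK119ub-only promoters, and H3K27me3 peaks at 7.04% and 4.29%, against 42.1% and 37.6% of all promoters. Of the both-mark promoters, 85.2% and 78.7% had H3K27me3 there. Of the H3K27me3-only promoters, 57.1% and 50.6% had an H2AK119ub peak there, against 70.3% and 69.3% of all promoters. By the same rule on those 4 libraries, 85.1% of the H2AK119ub-only promoters kept their class, where 32.3% of all promoters had it, and 75.3% of the both-mark promoters did, where 33.6% of all had it. The H3K27me3-only class was kept by 37.0% of its promoters, where 2.26% of all had it. In Tet2-WT LK cells, H2AK119ub peaks lay at 92.9% and 88.8% of the promoters that were H2AK119ub-only in mES cells (70.6% and 65.6% of all promoters), and H3K27me3 peaks at 69.6% and 73.7% of them, against 60.5% and 62.7% of all promoters there. By class, 58.9% of the H2AK119ub-only promoters had both marks in Tet2-WT LK cells, against 47.9% of all promoters.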

How the data were processed

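CUT&Tag peak lists of the 4 wild-type mES libraries were analysed, with 12 other mouse libraries used as a look-up. The authors trimmed reads with Trimmomatic (0.39 in the processing notes), aligned them with Bowtie2 (2.4.1) to mm10 with a Drosophila spike-in, removed duplicates and deposited 1 list of peak positions per library. The methods name MACS2 in broad mode with a cutoff of 0.01 as the peak caller, and the processing notes name HOMER 4.9. The lists hold positions with no score, count or depth. Their order in the file runs broadly from wide to narrow peaks. On autosomes 33.7–37.4% of peaks were 501 bp wide, so narrow peaks share a minimum width.

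Peaks were joined to GENCODE vM21 gene starts on GRCm38, the same build as mm10 (pandas 2.3.3 and numpy 2.4.6 under Python 3.11.15). At least 1 bp of a 2001 bp window had to be touched. CpG ratios came from the GRCm38.p6 genome. Class assignment recovered 400 of 400 simulated promoters of known class. Every simulated peak touched its window in both replicates, so this checks the code and not the accuracy of the calls. Library values were compared by two-sided exact permutation over 6 arrangements, which measures only the spread between these libraries. Replicate numbers were not treated as pairs, since the methods state no pairing. The deviations of same-numbered libraries had r = 0.0127 across 20807 promoters, which cannot show whether those libraries shared a culture. The named genes were, without Gm or Rik names and with 1 gene per peak, the 5 with the widest peaks in each marked class, the 10 of each single-mark class with the most covered bases and none of the other mark (ties by peak width), up to 4 alphabetical members per list and class, and marker genes. Printed sequences were those nearest the median CpG count of a list and class. Promoter classes, gene lists and tests were chosen with earlier results of these data known. Human leukaemia cell libraries of the series were not used here.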

Additional observations from a re-analysis of the deposited data

Results flagged for a closer look

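Where the marks were apart in wild-type mES cells, a few measures were apart in the opposite direction in LK cells; the differences between cell types were not tested. The median covered length of a marked promoter was lower for H2AK119ub than for H3K27me3 in wild-type mES cells (1268 against 1435.5 bp) and higher by 138 bp in Tet2-WT LK cells and by 288 bp in Tet2-KO LK cells. In Tet2-KO LK cells the share of marked promoters with the start base covered was higher for H2AK119ub by 1.23 percentage points, where wild-type mES cells had 81.9% against 86.7%. The median CpG ratio of marked promoters was lower for H2AK119ub in Tet2-KO LK cells, with a difference of -0.00717, where wild-type mES cells had 0.560 against 0.533.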

How the results depend on the processing

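The lists give no depth, so a missing peak cannot be told from a shallow library. Window size and the other planned settings kept all 4 class counts within 1.5 times, except that peaks of at least 1 kb gave 5522 both-mark promoters and 11092 with neither, promoters with 1 of 2 replicates left out gave 248 with H3K27me3 alone, and equal numbers of peaks (the first of each list in file order) gave 964 with H3K27me3 alone. The share of H3K27me3 promoters with H2AK119ub was 92.1% with a 500 bp window on each side, 94.3% with 2 kb, 92.2% with at least 500 bp covered, 85.8% with peaks of at least 1 kb, 95.7% with either replicate, 97.3% without 1-of-2 promoters, 94.2% with any coding transcript start and 89.7% with equal numbers of peaks. The share of H2AK119ub promoters with H3K27me3 was 62.7% with peaks of at least 1 kb, 69.7% with either replicate, 71.7% without 1-of-2 promoters, 70.0% with equal numbers of peaks and 68.2% without promoters that have another start within 1 kb, an alternative chosen after seeing the data. Leaving out each replicate in turn gave ranges of 91.5–95.6% and 62.3–70.9% for these shares and of 419–903 promoters with H3K27me3 alone. Of the 59 genes named for widest peaks, covered bases, markers or printed sequences, 31 kept their class in every alternative.

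Differences below are H2AK119ub minus H3K27me3. Leaving out each library in turn gave -24 to 58 bp for median peak width, -1235.5 to 938.5 for peaks of at least 5 kb, -0.0755 to 0.745 percentage points for bases in promoter windows and -3.12 to 0.627 points for 501 bp peaks. Joining peaks within 1 kb turned median width to -10.5 bp and peaks of at least 5 kb to 1216. Peaks of at least 1 kb turned median width to -209.5 bp. Equal numbers of peaks turned mean width to 173.2 bp, and equal covered length turned it to 378.5 bp and the number of peaks to -19033.5. A 2 kb window turned bases in promoter windows to -0.0835 points. In all, 12 values reversed, in 6 of 13 measures, and the cause was not tested. Fitting the replicate number as a block (sign flips over 4 arrangements) left each difference as it was, with 50505 more H2AK119ub peaks and a smallest possible p of 0.5 in that exact test. In this balanced design the replicate block cannot move a mean difference, and neither test could reach 0.05, so it says nothing about stability. With CpG counted over 500 bp on each side the median ratios were 0.632 with both marks, 0.708 with H2AK119ub alone and 0.203 with neither. With peaks joined, median widths were 4281 bp (H2AK119ub) and 5133 bp (H3K27me3) with both marks, 1226 bp with H2AK119ub alone and 1542 bp with H3K27me3 alone.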
